A study of Mus musculus with 24 samples.

Results

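The sex-dependent liver programme was compared in wild-type mice after a chemical tumour protocol, with 4 arrays of treated males against 4 arrays of treated females. These 8 of the 24 arrays of the series were chosen by their titles, and no measured value entered the choice. Autosomal genes alone were counted, which left 18241 of the 19037 genes tested. Treated mice of either sex had been injected with diethylnitrosamine (DEN), a carcinogen activated in hepatocytes, at 20 mg/kg when 14 to 15 days old. They then received TCPOBOP, an agonist of the nuclear receptor CAR that promotes liver tumours, at 3 mg/kg, 8 times at intervals of 2 weeks. The other groups used, each of 4 arrays, were treated males and treated females labelled dKO, in which the forkhead factors Foxa1 and Foxa2 are deleted, and untreated wild-type females. Untreated dKO females entered only the estimate of the spread. The labels name liver tumor as the tissue of all 24 arrays, untreated ones included, and neither the age at collection, nor what drives the deletion, nor whether replicates were separate animals is given in the sources used here. The p-values therefore measure the spread between these arrays. No untreated males were analysed here, so treatment and sex could not be crossed.

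In rodents the pituitary of males releases growth hormone in sharp pulses, whereas that of females releases it more evenly. In hepatocytes the hormone activates the transcription factor STAT5b, and the 2 patterns maintain different sets of liver genes, among them cytochromes P450, sulfotransferases, steroid dehydrogenases and urinary proteins. The repressor BCL6 is more abundant in male mouse liver and the repressor CUX2 in female liver, and each holds down genes of the other sex. DEN gives more liver tumours in male than in female mice, and FOXA1 and FOXA2 are known to act together with the receptors for oestrogen and androgen in this setting.

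Values are log2 signals relative to the 75th percentile of their array, listed for replicates 1 to 4 in order, and differences are male minus female on that log2 scale with the standard error of the fit. A gene was called where the adjusted p of limma's test, with Benjamini-Hochberg adjustment, was under 0.05. Where a gene was not well above background on any array of a group, its fold is given as a lower bound. The arrays fitted their labels, since the Y-linked Ddx3y, Eif2s3y, Kdm5d and Uty were above background on 4 of 4 male and 0 of 4 female arrays. The X-linked Xist gave 0 and 4. Between 52.7% and 63.5% of spots were well above background on the male arrays, against 57.4% to 62.1% on the female arrays. Slides 1 and 4 each held 1 array of either sex. Named genes called with all arrays had the same direction within both, which for all but 4 of them follows from groups that do not overlap.

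Replicate 4 of every group behaved differently from replicates 1 to 3. In treated wild-type males its value lay between those of other arrays of its group for 79.6% of autosomal genes, against 45, 35.6 and 39.9% for replicates 1, 2 and 3. In treated wild-type females the share was 71.3% for replicate 4, against 47.3, 44.2 and 37.2%. Over the 6 groups the share was 68.9% to 84% for replicate 4 and 25.9% to 60.8% for the others, where the 4 arrays of a group average 50% by construction. Its difference from the log2 mean signal of the other 3 arrays had an SD over genes of 0.37 in males and 0.414 in females. For replicates 1 to 3 that SD was 0.614 to 0.639 in males and 0.559 to 0.598 in females. The labels call replicate 4 a replicate like the others, and whether its RNA was separate from theirs was not tested. The counts of called genes and most genes named are therefore given both with all arrays and without replicate 4 of every group, a setting chosen after the data were seen. A value with no setting named is from all arrays.

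**Figure D1:**
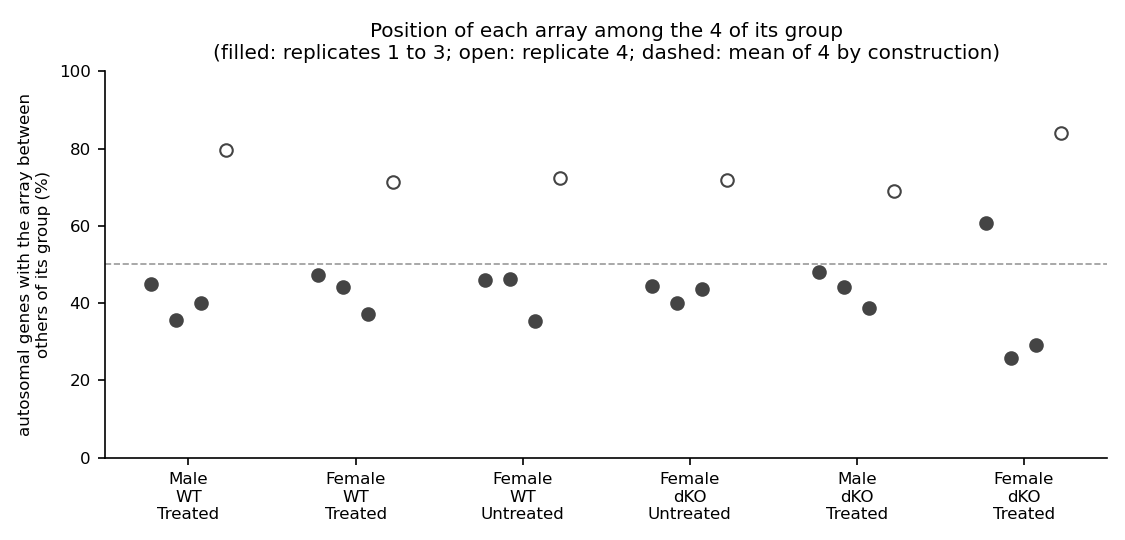
Share of autosomal genes (%, vertical axis) for which each array's value lies between those of other arrays of its group, for the 6 groups (horizontal axis). Filled points are replicates 1 to 3 and open points replicate 4. The open point is the highest of its group in every group, at 68.9% to 84%, against 25.9% to 60.8% for the filled points.

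With all arrays, 603 autosomal genes were higher in males (3.31% of those tested) and 518 were lower (2.84%), of which 290 and 186 differed by 2-fold or more. All 4 male arrays lay above all 4 female arrays for 1280 genes (7.02%) and below them for 1382 (7.58%). Over all autosomal genes 45.8% of differences were positive, with a median of -0.03. Without replicate 4, the calls fell to 37 genes higher (0.203%) and 31 lower (0.17%), and 67 of these 68 were also among the calls with all arrays. Leaving out replicate 1 of every group instead gave 235 and 240 calls, replicate 2 gave 602 and 588, and replicate 3 gave 670 and 598. Each of the 603 and 518 genes kept its direction without replicate 4. Since replicate 4 lay between other arrays of its group for most genes, its removal could hardly reverse a direction, and this is no measure of stability. The median standard error was 0.258 without replicate 4, against 0.195 to 0.225 without another replicate.

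Males had high signals of the paired fatty acid hydroxylases Cyp4a12a and Cyp4a12b, which make 20-HETE from arachidonic acid and are standard male markers of mouse liver. Cyp4a12a (chr4:115005343-115005402, probe position in mm9) read 6.93, 6.12, 6.71 and 6.61 on the male arrays, against 0.17, 0.33, 2.25 and 0.94 on the female arrays. No female array came within 3 log2 units of a male one, and the difference of 5.67 ± 0.71 (adjusted p = 6.52e-05) was 5.67 without replicate 4 (adjusted p = 0.0200). Cyp4a12b (chr4:115106662-115107596) read 5.30, 4.33, 4.97 and 4.90 on the male arrays, against 0.44, 1.35, 1.28 and 0.94 on the female arrays, a difference of 3.87 ± 0.50 (adjusted p = 9.57e-05, 0.0240 without replicate 4). These genes are near-identical copies, so their probes may share signal. Their levels in untreated females ran in opposite directions: -3.26, -4.07, -1.46 and -3.25 for Cyp4a12a and 3.35, 3.14, 3.93 and 3.45 for Cyp4a12b.

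The terminal complement protein C6 and the copper monooxygenase family member Moxd1, both male-biased in mouse liver, were also higher in males with and without replicate 4. C6 (chr15:4748363-4748422) read 3.64, 3.59, 2.79 and 3.38 on the male arrays, against 0.24, 0.35, 1.19 and 0.42 on the female arrays. The groups stood apart by more than 1 log2 unit, with a difference of 2.80 ± 0.28 (adjusted p = 4.65e-06, 0.00581 without replicate 4). Moxd1 (chr10:24022208-24022266) read -3.31, -1.23, -2.23 and -1.88 on the male arrays, against -7.39, -5.68, -7.38 and -6.84 on the female arrays. It was above background on 4 of 4 male and 0 of 4 female arrays and at least 8.20-fold higher in males (adjusted p = 3.92e-06, 0.00230 without replicate 4).

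The 250 bases before the start of Moxd1 (GRCm38.p6, chr10:24223267-24223516, plus strand, from RefSeq) are shown because they hold both a STAT5-type motif, TTCNNNGAA, 150 to 142 bases before the start, and the CUX2-type motif ATCGAT, 209 to 204 bases before it, in capitals.
Moxd1: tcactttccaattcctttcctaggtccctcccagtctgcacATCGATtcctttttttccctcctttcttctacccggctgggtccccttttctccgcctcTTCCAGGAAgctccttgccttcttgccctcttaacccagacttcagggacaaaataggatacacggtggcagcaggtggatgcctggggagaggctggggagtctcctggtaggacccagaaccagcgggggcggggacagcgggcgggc

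Hsd3b5, a 3-ketosteroid reductase of male liver, had the largest fitted difference among genes higher in males, and its replicates were widely spread. It (chr3:98422848-98422907) read 3.10, -0.46, -2.28 and 1.56 on the male arrays, against -6.12, -3.95, -6.57 and -5.10 on the female arrays. All male arrays were above all female arrays, a condition for naming it among the largest differences. Of the female arrays 1 of 4 was above background, and the difference was 5.92 ± 0.99 (adjusted p = 0.00120). Without replicate 4 it was 5.67 and missed the threshold (adjusted p = 0.0831). The neighbouring Hsd3b4 gave nearly the same male values (3.11, -0.54, -2.23 and 1.42), so the probes may read the same transcripts, and the related Hsd3b2 differed by 1.61 ± 0.40 (adjusted p = 0.0191, 0.253 without replicate 4). Untreated females read 1.40, 0.61, -3.55 and 0.49 for Hsd3b5.

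**Figure D2:**
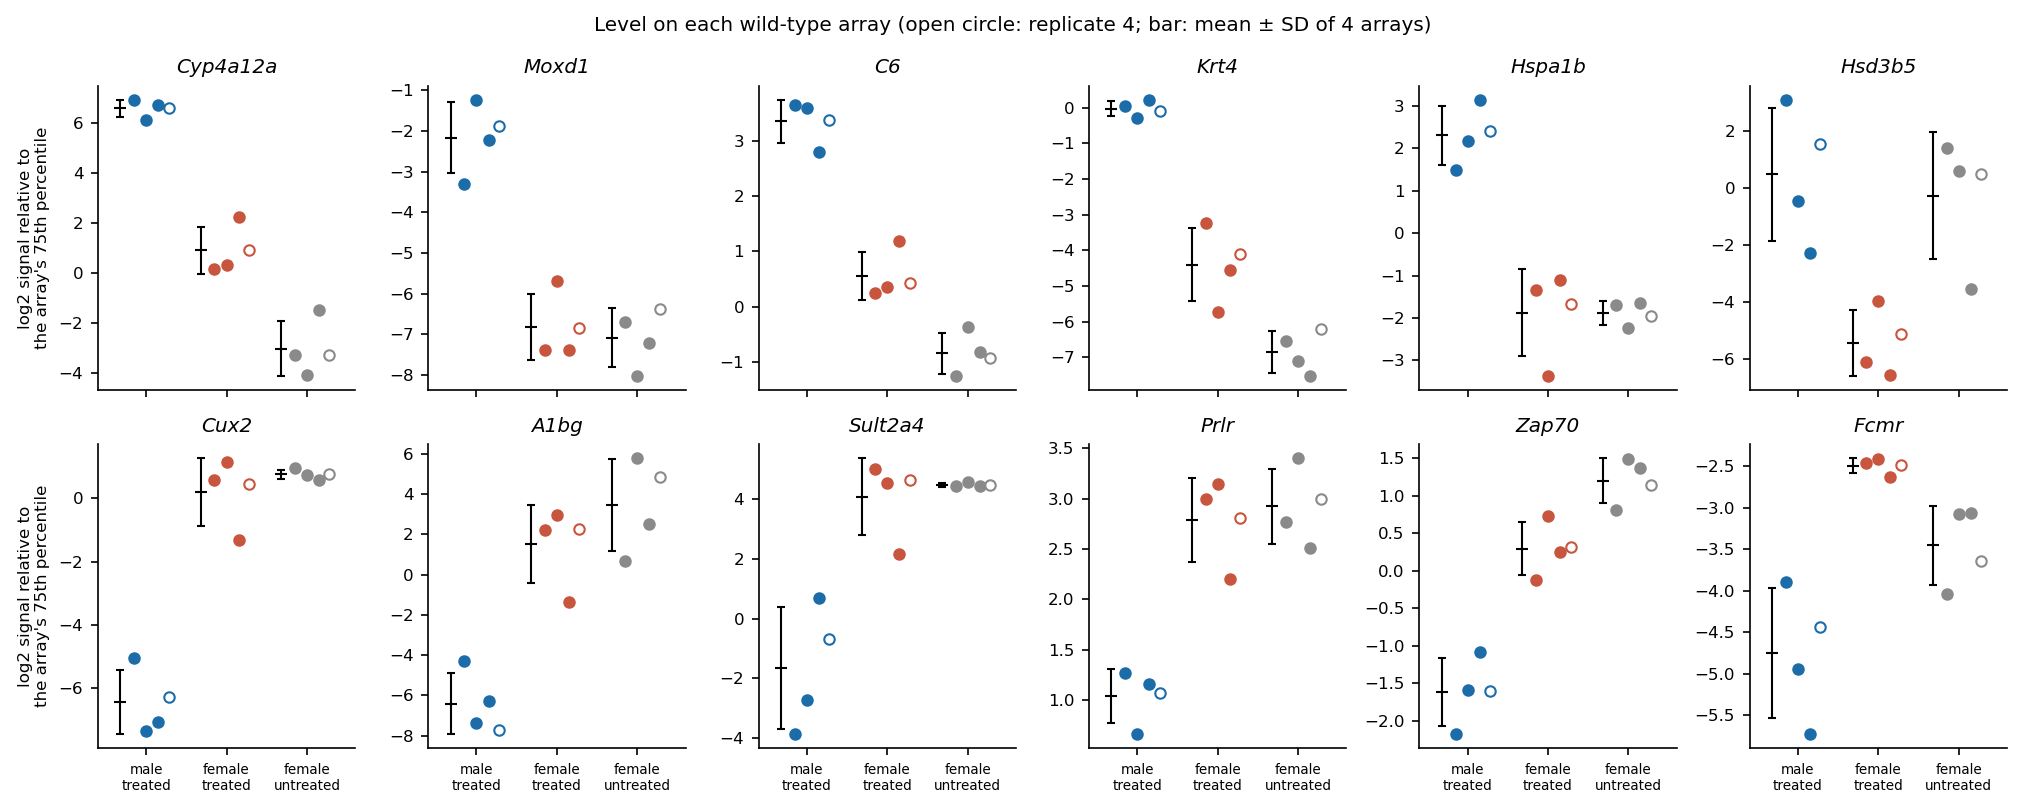
Level of 12 genes on each wild-type array (vertical axis, log2 signal relative to the array's 75th percentile) in treated males, treated females and untreated females (horizontal axis). Filled circles are replicates 1 to 3, open circles replicate 4, and bars the mean ± SD of 4 arrays. The 4 treated male and 4 treated female arrays do not overlap for any of the 12 genes. For Cyp4a12a, Moxd1, Krt4, Hspa1b, Hsd3b5, Cux2, A1bg and Sult2a4 this was a condition of their choice.

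Other enzymes and proteins higher in males under both settings covered several roles. Cyp2c66, a P450 of the 2C family, read -1.21, -1.05, -1.18 and -1.08 on the male arrays, against -2.93, -3.40, -2.90 and -3.12 on the female arrays, with a narrow spread in both sexes (1.96 ± 0.29, adjusted p = 0.000328, 0.0361 without replicate 4). Ugt2b35, a glucuronosyltransferase, read 5.18, 4.90, 5.23 and 5.07 on the male arrays, against 4.23, 4.24, 4.36 and 4.34 on the female arrays. Its difference was small beside those above but lay well outside the spread (0.80 ± 0.09, adjusted p = 1.15e-05, 0.0116 without replicate 4). Krt4, a keratin of stratified epithelium, read 0.04, -0.29, 0.22 and -0.10 on the male arrays, against -3.24, -5.72, -4.55 and -4.10 on the female arrays (4.37 ± 0.46, adjusted p = 9.34e-06, 0.00386). Untreated females had lower values than either treated sex for it, at -6.54, -7.11, -7.53 and -6.22. Bglap3, of the osteocalcin genes, read 1.01, 1.43, 1.88 and 1.39 on the male arrays, against -3.86, -2.57, -1.95 and -2.54 on the female arrays (4.16 ± 0.49, adjusted p = 3.70e-05, 0.0135). Its copy Bglap differed by 4.48 ± 0.66 (adjusted p = 0.000328, 0.0457), and the 2 probes may share signal. Ifi27, an interferon-inducible membrane protein, differed by 0.89 ± 0.11 (adjusted p = 6.30e-05, 0.0240). Of 34 measured interferon-response genes 2 were higher, a share near the 6.15% called among all autosomal genes. The median difference of that list was -0.05.

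Cela3b, a pancreatic elastase, read -2.27, -1.32, -0.41 and -1.16 on the male arrays, against -4.42, -5.19, -6.04 and -4.82 on the female arrays (3.83 ± 0.58, adjusted p = 0.000464, 0.0348 without replicate 4). It was the 1 member called of 10 measured exocrine pancreas genes, whose median difference was 0.33, and -0.07 with background from local signals (normexp). The mean level of the 10, Cela3b included, was -1.61, -1.67, -1.35 and -1.45 on the male arrays, against -2.23, -2.37, -2.51 and -2.26 on the female arrays. The part of pancreatic RNA in this difference was not tested.

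The heat-shock genes Hspa1a and Hspa1b were higher in males under both settings. They encode the inducible chaperone HSP70 from near-identical genes on chromosome 17, so their probes may share signal. Hspa1a read 2.99, 3.80, 5.23 and 4.38 on the male arrays, against 0.13, -2.51, 0.64 and -0.06 on the female arrays, and Hspa1b read 1.49, 2.17, 3.15 and 2.42 on the male arrays, against -1.35, -3.38, -1.11 and -1.66 on the female arrays. For both, every male array was above every female array, which was a condition for naming them. The differences were 4.55 ± 0.51 (adjusted p = 2.02e-05, 0.0116 without replicate 4) and 4.18 ± 0.39 (adjusted p = 2.36e-06, 0.00252). Of other chaperone genes, picked after their values were seen, the HSP110 gene Hsph1 differed by 1.53 ± 0.21 (adjusted p = 0.000147, 0.0328) and the co-chaperone gene Dnajb1 by 1.08 ± 0.15 (adjusted p = 0.000147, 0.0349). In dKO mice the same comparison gave 4.10 ± 0.51 for Hspa1a and 4.15 ± 0.39 for Hspa1b (adjusted p = 3.50e-05 and 1.70e-06, 0.0107 and 0.00243 without replicate 4).

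Genes of 5 secreted proteins, also picked after their values were seen, passed under both settings. Ihh, the hedgehog ligand, read -1.48, -2.34, -2.16 and -1.99 on the male arrays, against -4.76, -4.25, -4.47 and -4.69 on the female arrays (2.55 ± 0.19, adjusted p = 4.96e-08, 0.000322 without replicate 4). Bmp8b, a BMP ligand, read -0.85, -0.60, -0.75 and -0.68 on the male arrays, against -4.84, -4.26, -3.95 and -4.33 on the female arrays (3.62 ± 0.48, adjusted p = 0.000140, 0.0267). Neither gene had a female array within 1 log2 unit of a male one. Omd, an extracellular matrix proteoglycan of bone, differed by 3.45 ± 0.34 (adjusted p = 3.92e-06, 0.000545), and Ccn2, the matricellular protein CTGF, by 1.74 ± 0.19 (adjusted p = 1.37e-05, 0.0116). Lpl, the lipoprotein lipase, read 4.61, 4.38, 3.77 and 4.38 on the male arrays, against 2.496, 2.06, 3.31 and 2.67 on the female arrays (1.65 ± 0.22, adjusted p = 0.000144, 0.0341). Untreated females were lower than both treated groups for Lpl, at -0.24, 0.33, 0.56 and 0.24.

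Further genes among the largest male excesses passed with all arrays and missed the threshold without replicate 4. They were Nat8f5, an acetyltransferase family member (4.21), the potassium channel gene Kcnk1 (4.77), the ferritin receptor gene Scara5 (4.45), the retinol-binding protein gene Rbp7 (3.75) and Rian (3.92). Their adjusted p without replicate 4 was 0.0504 at the lowest. On female arrays other than replicate 3, Kcnk1 (-5.42 or lower) and Scara5 (-6.70 or lower) read as low as genes not above background. The size of these differences is therefore uncertain. Females differed more among themselves than males for Nat8f5, with 0.88, 2.08, 1.82 and 1.64 on the male arrays, against -4.48, -4.13, -0.05 and -1.74 on the female arrays.

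Of 35 measured genes on a list of classic male-biased liver genes, 11 were higher in males, none was lower, and 24 were not called. Without replicate 4 the count was 4: Cyp4a12a, Cyp4a12b, Moxd1 and C6. The list's median difference was 0.71, beside -0.03 for all autosomal genes. Members called with all arrays alone included the calcium-binding protein gene Cib3, above background on 0 of 4 female arrays and at least 3.94-fold higher (adjusted p = 0.000494, 0.0541 without replicate 4). C8a, another terminal complement gene, read 5.36, 4.60, 4.92 and 4.96 on the male arrays, against 3.09, 3.68, 4.75 and 3.89 on the female arrays (adjusted p = 0.0372, 0.332), and 1 female array overlapped the males. Cyp7b1, the oxysterol 7-alpha-hydroxylase, was higher on all 4 male arrays but was not called (0.71 ± 0.25, adjusted p = 0.106). The major urinary proteins are pheromone carriers that are male-biased in untreated mouse liver, and 0 of 7 measured members of the urinary and odorant-binding protein list were called. Mup3 read 8.79, 8.37, 8.82 and 8.74 on the male arrays, against 8.29, 8.51, 8.20 and 8.35 on the female arrays, and the groups overlapped (0.34 ± 0.48, adjusted p = 0.756). That standard error is from a spread shared by all groups of the fit. Among them the treated dKO females ranged far more widely for Mup3 than these arrays. The missing call therefore does not show that a sex difference of Mup3 was absent. Several of the urinary protein genes are near-identical, so single members are uncertain.

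Females had the repressor gene Cux2 at levels not seen in males. Cux2 (chr5:122310447-122310506) read -5.06, -7.34, -7.07 and -6.29 on the male arrays, against 0.58, 1.15, -1.32 and 0.44 on the female arrays. It was not above background on any male array and was at least 39.0-fold lower in males (adjusted p = 8.09e-07, 0.00129 without replicate 4). Untreated females read 0.96, 0.73, 0.60 and 0.77, so treated female replicate 3 was the lowest of the 8 wild-type female arrays.

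A1bg, a plasma glycoprotein of the immunoglobulin superfamily that is female-specific in mouse liver, had the most negative fitted difference among genes called. A1bg (chr15:60751270-60751329) read -4.31, -7.38, -6.26 and -7.70 on the male arrays, against 2.19, 2.94, -1.37 and 2.25 on the female arrays. Female replicate 3 stood below the other 3 female arrays but above every male array, none of which was above background. The fold was at least 95.1 lower in males (adjusted p = 0.000147, 0.0346 without replicate 4).

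Windows of 250 bases before the start of A1bg (GRCm38.p6, chr15:60921271-60921520, minus strand) and of Slc22a26 (chr19:7802668-7802917, minus strand), both from RefSeq, are shown because each of these genes lower in males holds TTCNNNGAA. The match, in capitals, lies 84 to 76 bases before the A1bg start and 141 to 133 bases before the Slc22a26 start.
A1bg: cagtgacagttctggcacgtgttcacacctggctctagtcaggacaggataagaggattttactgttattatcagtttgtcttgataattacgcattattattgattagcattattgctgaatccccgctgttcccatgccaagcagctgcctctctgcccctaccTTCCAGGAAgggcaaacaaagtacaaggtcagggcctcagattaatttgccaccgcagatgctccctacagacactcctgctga
Slc22a26: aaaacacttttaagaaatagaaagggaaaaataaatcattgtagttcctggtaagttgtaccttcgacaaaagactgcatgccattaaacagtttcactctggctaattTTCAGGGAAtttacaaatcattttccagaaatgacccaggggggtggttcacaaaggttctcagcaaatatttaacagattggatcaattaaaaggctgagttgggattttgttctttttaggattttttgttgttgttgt

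Slc22a26, an organic anion transporter gene, read 0.52, 0.36, 1.02 and 0.73 on the male arrays, against 4.52, 4.44, 3.38 and 4.14 on the female arrays. The groups were more than 2 log2 units apart (-3.46 ± 0.60, adjusted p = 0.00154), and the difference missed the threshold without replicate 4 (adjusted p = 0.0873). The steroid and bile acid sulfotransferase gene Sult2a4 read -3.88, -2.73, 0.69 and -0.67 on the male arrays, against 4.999, 4.54, 2.17 and 4.63 on the female arrays. Male replicates 3 and 4 were the highest males and female replicate 3 the lowest female, without overlap (-5.73 ± 0.88, adjusted p = 0.000534, 0.0457 without replicate 4). Its relative Sult2a2 showed the same order of male arrays and the same lowest female array. It read 0.05, 2.27, 4.86 and 3.56 on the male arrays, against 7.82, 7.99, 6.15 and 7.74 on the female arrays (-4.74 ± 0.84, adjusted p = 0.00177, 0.0789). Sult2a genes are similar in sequence, so the probes may not separate them. Of 15 measured sulfotransferases, 2 were lower in males and none was higher, where 6.15% of all autosomal genes were called.

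Flavin monooxygenases, which oxidise nitrogen and sulphur in drugs, split by member. Fmo2 (-1.48 ± 0.31, adjusted p = 0.00659) and Fmo4 (-0.87 ± 0.19, adjusted p = 0.00763) were lower in males. Fmo5 was higher (0.79 ± 0.23, adjusted p = 0.0455). Fmo1 was not called (-0.25 ± 0.15, adjusted p = 0.368), although its 4 male arrays lay below its 4 female arrays. None of these 4 passed without replicate 4, where their lowest adjusted p was 0.162.

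Of 46 measured classic female-biased liver genes, 13 were lower in males, 1 was higher and 32 were not called, with a median of -0.70. Without replicate 4 the count was 2 lower, A1bg and Cux2. Acot3, a peroxisomal acyl-CoA thioesterase, read -1.59, -1.61, 0.20 and -0.74 on the male arrays, against 2.92, 2.34, 0.54 and 2.35 on the female arrays, and male replicate 3 came within 1 log2 unit of female replicate 3 (-2.97 ± 0.56, adjusted p = 0.00298, 0.126 without replicate 4). Hao2, a hydroxyacid oxidase, and Cyp17a1, the 17-alpha-hydroxylase, were not called (-2.05 ± 0.61 and -2.02 ± 0.62, adjusted p = 0.0511 and 0.0574). Serpinb1c, a protease inhibitor gene outside that list, read -1.60, -2.10, -1.51 and -1.78 on the male arrays, against 1.41, 0.34, 0.04 and 0.85 on the female arrays (-2.40 ± 0.32, adjusted p = 0.000140, 0.0348 without replicate 4). Its relative Serpinb1a differed by -1.97 ± 0.31 (adjusted p = 0.000675, 0.0731). Among the largest deficits in males with all arrays were also the retinol dehydrogenase family gene Rdh16f2 (-3.24), the hepcidin gene Hamp2 (-3.67), the protease gene Htra4 (-2.75), the melanin enzyme gene Dct (-2.37), the guanylate-binding protein gene Gbp2b (-2.26) and 1810046K07Rik (-2.85). None of these 6 passed without replicate 4 (lowest adjusted p 0.116).

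Among 26 measured genes of the growth hormone, prolactin and STAT5 axis, 5 were lower in males, none was higher and 21 were not called, and without replicate 4 only Cux2 was. At the receptor level, the prolactin receptor gene Prlr read 1.26, 0.66, 1.16 and 1.07 on the male arrays, against 3.00, 3.14, 2.20 and 2.80 on the female arrays (-1.75 ± 0.33, adjusted p = 0.00270, 0.122 without replicate 4). The growth hormone receptor gene Ghr overlapped between the sexes (-0.15 ± 0.23, adjusted p = 0.772), and so did the signal transducer gene Stat5b (-0.17 ± 0.15, adjusted p = 0.577). Of the secreted targets, Igf1, the main circulating growth factor made by liver, read 4.76, 4.47, 4.74 and 4.70 on the male arrays, against 5.90, 6.11, 5.49 and 5.75 on the female arrays. It was lower in males with all arrays (-1.14 ± 0.19, adjusted p = 0.000883, 0.0703 without replicate 4), as was Igfals, the binding partner that stabilises it (-1.17 ± 0.27, adjusted p = 0.0125, 0.246). The feedback inhibitor gene Socs2 read 2.21, 0.42, -1.38 and 0.90 on the male arrays, against 2.55, 2.17, 0.97 and 1.88 on the female arrays and was not called (-1.35 ± 0.54, adjusted p = 0.148). Bcl6, the repressor known from male liver, read 2.03, 3.73, 3.33 and 3.28 on the male arrays, against 1.001, 2.42, 3.74 and 2.52 on the female arrays, with overlapping groups (0.67 ± 0.57, adjusted p = 0.560). Trim24, a chromatin cofactor, was lower in males (-0.76 ± 0.20, adjusted p = 0.0282, 0.332 without replicate 4).

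Of 31 measured liver transcription factors and nuclear receptors, 2 were lower in males and none was higher. That share is near the 6.15% called among all autosomal genes. Esr1, the oestrogen receptor gene, read -0.67, -0.44, -0.19 and -0.43 on the male arrays, against 0.67, 0.73, 0.49 and 0.42 on the female arrays, without overlap (-1.01 ± 0.24, adjusted p = 0.0141, 0.178 without replicate 4). Untreated females had 1.64, 1.48, 1.22 and 1.60, above both treated groups. The homeobox gene Prox1 differed by -0.73 ± 0.21 (adjusted p = 0.0446, 0.369) and lost its call under 15 of the alternative settings. Foxa1 (0.51 ± 0.28), Foxa2 (-0.32 ± 0.77) and Foxa3 (0.51 ± 0.27) were not called (adjusted p = 0.312, 0.869 and 0.309). Foxa2 read 3.78, 3.71, 3.55 and 3.72 on the male arrays, against 4.09, 4.09, 3.88 and 3.97 on the female arrays. Every male array thus lay below every female array. The standard error of 0.77 is from a spread shared by all groups of the fit, dKO groups included. It is wide beside the spread of these values, so the missing call does not show that Foxa2 was equal in the sexes.

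**Figure D3:**
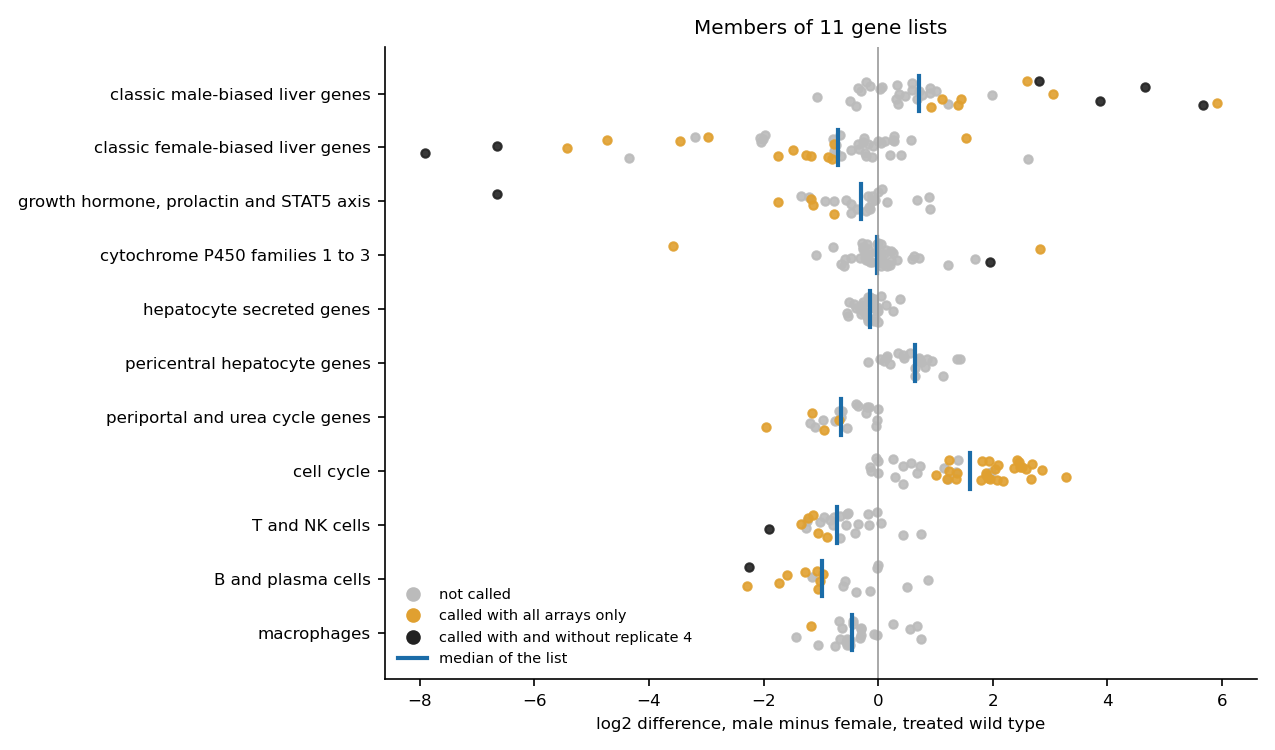
Log2 difference, male minus female, of each measured member (horizontal axis) of 11 gene lists (vertical axis) in treated wild-type mice. Grey points were not called, ochre points were called with all arrays alone, black points with and without replicate 4, and blue bars are list medians. The cell cycle list has the highest median, 1.59, with 27 ochre and no black points.

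Of 46 measured P450s of families 1 to 3, 2 were higher in males and 1 lower, with a median of -0.02. That share is near the 6.15% called among all autosomal genes, and without replicate 4 only Cyp2c66 was called. Cyp1a1, a target of the aryl hydrocarbon receptor, read -0.05, 0.29, 2.37 and 1.37 on the male arrays, against -2.07, -1.92, -1.59 and -1.76 on the female arrays (2.83 ± 0.53, adjusted p = 0.00267, 0.121 without replicate 4), and males ranged over more than 2 log2 units. Cyp2c38, a fatty acid epoxygenase, read -2.79, -2.54, -2.05 and -2.37 on the male arrays, against 2.33, 2.27, -2.10 and 2.09 on the female arrays, so female replicate 3 sat among the males (-3.59 ± 0.99, adjusted p = 0.0350, 0.370). Beside 3.31% higher and 2.84% lower among all autosomal genes, 4 of 34 measured CAR and PXR targets were higher in males and none lower. Their median was 0.20. Among them Gstm2, a glutathione transferase gene, read 6.42, 7.30, 7.16 and 7.01 on the male arrays, against 5.31, 4.78, 5.94 and 5.47 on the female arrays (1.59 ± 0.43, adjusted p = 0.0311, 0.296). Of 23 glutathione transferases 4 were higher and 1 lower. They included Mgst2 (1.91 ± 0.53, adjusted p = 0.0364), a microsomal enzyme, Gstp1 (0.92 ± 0.19, adjusted p = 0.00661), and Gsto2 as the lower one (-1.73 ± 0.40, adjusted p = 0.0124). None of these 3 passed without replicate 4. Of 21 NRF2 targets 2 were higher in males and none lower, where 6.15% of all autosomal genes were called. A positive difference was found for 19 of the 21, against 45.8% of all autosomal genes. The carbonyl reductase gene Cbr3 read 3.51, 4.11, 4.09 and 3.96 on the male arrays, against 0.41, 0.96, 1.63 and 0.94 on the female arrays (2.93 ± 0.67, adjusted p = 0.0113, 0.172).

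Genes of the mitotic cycle had the widest shift of any list with all arrays. Of 44 measured members, 27 were higher in males, none was lower and 17 were not called, with a median of 1.59. The list's mean level was -0.87, -0.91, -0.89 and -0.89 on the male arrays, against -2.53, -2.49, -2.11 and -2.38 on the female arrays and -2.77, -2.19, -2.28 and -2.31 on the untreated female arrays. Males were thus within 0.1 log2 units of each other and apart from every female array. Without replicate 4 the median was 1.61 but none of the 44 passed. With the background estimated from local signals (normexp) the median was 0.71. Ccnb1, the mitotic cyclin B1, read -1.85, -1.95, -2.21 and -2.18 on the male arrays, against -6.31, -4.83, -4.40 and -5.71 on the female arrays, and was above background on 2 of 4 female arrays (3.27 ± 0.62, adjusted p = 0.00310, 0.124 without replicate 4). Its kinase Cdk1 read -1.39, -1.46, -1.54 and -1.62 on the male arrays, against -4.43, -4.28, -3.77 and -4.23 on the female arrays (2.67 ± 0.53, adjusted p = 0.00424, 0.129). Cdc20, which activates the anaphase-promoting complex, was brighter, with 2.91, 2.21, 2.41 and 2.599 on the male arrays, against -0.71, -0.64, 0.39 and -0.36 on the female arrays (2.86 ± 0.45, adjusted p = 0.000680, 0.0651). Cenpf, of the kinetochore, differed by 2.68 ± 0.52, Prc1, of the spindle midzone, by 2.502 ± 0.45, and Tpx2, of the spindle, by 2.58 ± 0.59 (largest adjusted p 0.0117). The kinase genes Melk and Bub1b were higher on all 4 male arrays and not called (1.96 ± 0.60 and 1.39 ± 0.41, adjusted p = 0.0547 and 0.0509).

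Of 38 measured fetal liver and liver tumour genes, 5 were higher in males and 1 lower with all arrays, and none without replicate 4. Among all autosomal genes 3.31% were higher and 2.84% lower with all arrays. Alpha-fetoprotein, Afp, an oncofetal marker of liver tumours, read 3.13, 1.496, 1.94 and 2.31 on the male arrays, against -0.41, -0.60, -0.21 and -0.45 on the female arrays. The sexes did not overlap (2.64 ± 0.52, adjusted p = 0.00436, 0.138 without replicate 4), and untreated females had -2.14, -1.11, -2.47 and -1.73. The surface protein gene Ly6d read 3.45, 5.86, 5.03 and 5.07 on the male arrays, against 0.65, 0.56, 2.93 and 1.71 on the female arrays (3.39 ± 0.79, adjusted p = 0.0132, 0.207). Mycn (1.76 ± 0.35, adjusted p = 0.00460) and Sox4 (1.36 ± 0.29, adjusted p = 0.00661), both transcription factors active in progenitor cells, were higher as well. The metallothionein gene Mt2 was the lower one (-1.45 ± 0.32, adjusted p = 0.00875). Myc (0.68 ± 0.25, adjusted p = 0.118) and Il6 (-0.69 ± 0.41, adjusted p = 0.366), the cytokine gene linked to the sex bias of DEN tumours, were not called. Il6 was above background on 2 of 4 arrays of either sex.

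Of the hepatocyte zonation genes, a few periportal ones were called, and only with all arrays. All 20 measured periportal and urea cycle genes had a negative difference, 4 of them called, with a median of -0.64, and the list mean was 4.35, 4.34, 4.91 and 4.58 on the male arrays, against 5.23, 5.33, 4.96 and 5.20 on the female arrays. Hal, the histidine-degrading ammonia lyase, read 3.69, 3.56, 4.59 and 3.97 on the male arrays, against 6.05, 6.15, 5.48 and 5.97 on the female arrays (-1.96 ± 0.51, adjusted p = 0.0240, 0.287 without replicate 4). Cdh1, E-cadherin, differed by -1.15 ± 0.21, Uroc1, the next enzyme of histidine breakdown, by -0.94 ± 0.22, and the serine dehydratase-like gene Sdsl by -0.69 ± 0.15 (largest adjusted p 0.0142). None of the 4 passed without replicate 4. Of 21 pericentral genes, 20 had a positive difference and none was called, with a median of 0.64, which was -0.16 within slide 1. Their mean level was 3.18, 3.78, 3.89 and 3.71 on the male arrays, against 2.84, 3.01, 3.35 and 3.02 on the female arrays, and the groups overlapped. None of 33 hepatocyte secreted genes was called, and their median was -0.14.

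Few genes of lipid synthesis were called. Lpin1, a phosphatidate phosphatase, read 2.95, 2.52, 3.26 and 3.01 on the male arrays, against 1.36, 1.30, 1.53 and 1.31 on the female arrays (1.56 ± 0.22, adjusted p = 0.000253, 0.0504 without replicate 4). Srebf1, the transcription factor of fatty acid synthesis, was lower in males (-1.10 ± 0.23, adjusted p = 0.00612, 0.172), as was the sterol sensor gene Insig1 (-0.70 ± 0.17, adjusted p = 0.0171, 0.225). These were the 3 members called of 38 measured cholesterol and fatty acid synthesis genes, a share near the 6.15% of all autosomal genes, and their median was -0.17. None of the 38 passed without replicate 4. The glucocorticoid activator gene Hsd11b1 was lower (-1.11 ± 0.26, adjusted p = 0.0142, 0.235), and the acute-phase factor gene Cebpd was higher (0.83 ± 0.13, adjusted p = 0.000590, 0.0594).

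Called members of the B and T cell lists were lower in males. In these bulk samples fewer cells of a type and less RNA per cell cannot be told apart. Of 18 measured B and plasma cell genes, 9 were lower, none was higher and 9 were not called, with a median of -0.99. Their mean level was -2.61, -2.68, -3.64 and -2.80 on the male arrays, against -2.29, -2.07, -1.88 and -2.21 on the female arrays and -3.15, -2.82, -2.94 and -2.93 on untreated female arrays. Of 26 T and NK cell genes, 6 were lower and none was higher, with a median of -0.72. Their mean level was -3.09, -2.26, -3.53 and -2.76 on the male arrays, against -2.45, -2.76, -1.57 and -2.20 on the female arrays, and the groups overlapped. Without replicate 4, 1 gene of each list passed. These were Fcmr, the receptor for IgM, and Zap70, a kinase of the T cell receptor. Fcmr read -3.89, -4.95, -5.73 and -4.43 on the male arrays, against -2.46, -2.41, -2.63 and -2.49 on the female arrays and was above background on 2 of 4 male arrays (-2.26 ± 0.31, adjusted p = 0.000155, 0.0255 without replicate 4). Zap70 read -2.18, -1.59, -1.08 and -1.60 on the male arrays, against -0.12, 0.74, 0.25 and 0.31 on the female arrays (-1.91 ± 0.24, adjusted p = 6.10e-05, 0.0228).

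The other list members described passed with all arrays alone. Ms4a1, the B cell antigen CD20, read -2.46, -2.78, -4.16 and -2.94 on the male arrays, against -1.75, -1.34, -1.21 and -1.70 on the female arrays, with male replicate 3 the lowest (-1.59 ± 0.30, adjusted p = 0.00276, 0.0860 without replicate 4). The same male array was the lowest in Cd79b (-1.28 ± 0.32), of the B cell receptor, and the BAFF receptor gene Tnfrsf13c (-1.74 ± 0.40). Fcrla was above background on 0 of 4 male and 3 of 4 female arrays (at least 1.5-fold lower). In the T and NK list, the granzyme gene Gzma (-1.35 ± 0.31), the NK receptor gene Klrb1c (-1.22 ± 0.24) and the IL-2 receptor chain gene Il2rb (-1.14 ± 0.29) were lower with all arrays. With normexp background Cd79b, Tnfrsf13c, Fcrla, Gzma, Klrb1c and Il2rb missed the threshold. Outside the lists, and picked after their values were seen, 2 genes passed with and without replicate 4 in opposite directions, and neither passed with normexp background. Satb1, a chromatin organiser of lymphocytes, was lower in males (-1.48 ± 0.18, adjusted p = 5.03e-05, 0.00615). Themis, a signalling protein of developing T cells, was higher, with -2.31, -2.83, -2.23 and -2.31 on the male arrays, against -4.68, -4.32, -4.28 and -4.18 on the female arrays (1.95 ± 0.21, adjusted p = 1.01e-05, 0.00533). Of 24 macrophage genes 1 was lower, where 2.84% of all autosomal genes were lower. None of 13 neutrophil or 4 red cell genes was called.

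Called genes lay next to each other on the chromosome in 49 runs of 2 or more genes higher in males, which held 104 genes. Lower genes did so in 41 runs, which held 87. With 3.31% of genes called higher and 2.84% lower, some neighbours are called together without any clustering. The number so expected was not computed, so these counts do not show clustering. Among 3 runs of at least 3 higher genes was the imprinted Meg3, Rian and Mirg region of chromosome 12, which gives rise to long noncoding RNAs and microRNAs from the maternal copy. Meg3 (chr12:110809678-110809737) read 5.33, 4.50, 2.13 and 4.23 on the male arrays, against -0.38, -0.40, 1.995 and 0.59 on the female arrays. Male replicate 3 was close to female replicate 3, and the difference was 3.59 ± 0.71 (adjusted p = 0.00423, 0.141 without replicate 4). Rian read 0.37, -0.33, -1.79 and 0.53 on the male arrays, against -4.63, -4.87, -3.46 and -3.94 on the female arrays (3.92 ± 0.60, adjusted p = 0.000503, 0.0539), and Mirg had the same male replicate below the others, with -0.84, -0.98, -3.25 and -1.37 on the male arrays, against -5.73, -5.39, -2.93 and -5.27 on the female arrays (3.22 ± 0.67, adjusted p = 0.00604, 0.178). Untreated females had -0.66, -0.15, -0.56 and -0.55 for Meg3. On chromosome 3, Chd1l, a chromatin remodeller (0.87 ± 0.14), Fmo5, Prkab2, an AMPK subunit (1.38 ± 0.24), and Pde4dip, a centrosomal anchor protein (0.60 ± 0.13), were all higher, as was a transcript without a gene name between the last pair. On chromosome 6 the NK receptor genes Klrd1 (-0.90 ± 0.24), Klrk1 (-1.06 ± 0.25) and Klrc1 (-1.09 ± 0.23) were all lower. No NK receptor gene of this run passed with normexp background or with the 8 compared arrays fitted alone. Of these neighbours none passed without replicate 4.

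Promoter windows of 300 bases, 250 before and 50 after the start, were found in RefSeq (GRCm38.p6) for 450 of the 603 genes higher in males, 328 of the 518 lower and 11745 of all 18241 tested. The STAT5-type motif TTCNNNGAA, which reads the same on both strands, was in 35 windows of higher genes (7.78%), 42 of lower genes (12.8%) and 1019 of all (8.68%). The forkhead motif TGTTTAC, on either strand, was in 2.44% of higher, 5.79% of lower and 3.26% of all windows. The CUX2-type motif ATCGAT, also its own reverse complement, was in 0.889%, 1.22% and 0.928% of them in the same order, and the HNF4A-type motif CAAAGTCCA, on either strand, in 0.667%, 0.305% and 0.613%. These shares describe letters in a window, with no test, and a match is not evidence of binding.

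The same comparison was made in treated dKO mice, which share no array with the wild types. There 2273 autosomal genes were higher in males (12.5%) and 1440 lower (7.89%), 20.4% in all. Without replicate 4 these counts were 301 (1.65%) and 132 (0.724%). The treated dKO females differed most among themselves, with a correlation of 0.933 between replicates 2 and 3. In dKO 2230 genes were called without female replicate 2, 5754 without female replicate 3 and 2194 without female replicate 4, in place of 3713. Of the 603 genes higher in wild-type males, 135 were higher (22.4%), 139 lower (23.1%) and 329 not called (54.6%) in dKO males. Of the 518 lower in wild-type males, 101 were lower (19.5%), 28 higher (5.41%) and 389 not called. The difference between the 2 sex differences was itself called for 2296 autosomal genes (12.6%) with all arrays, as wild-type minus dKO positive for 958 (5.25%) and negative for 1338 (7.34%). Without replicate 4 limma called none, with a smallest adjusted p of 0.0843 and 2735 genes at an unadjusted p under 0.05.

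Some of the wild-type differences were also called in dKO with all arrays. Cyp4a12a read 6.18, 6.86, 6.16 and 6.53 on dKO male arrays, against 1.66, 5.07, 2.44 and 4.01 on dKO female arrays. The difference was 3.14 ± 0.71 (adjusted p = 0.00481, 0.0827 without replicate 4), and female replicate 2 was the array nearest to the males. C6 differed by 2.23 ± 0.28 (adjusted p = 3.50e-05, 0.0124) and Cyp2c66 by 3.23 ± 0.29 (adjusted p = 7.92e-07, 0.00118). Cux2 read -4.74, -6.81, -4.69 and -4.66 in dKO males, against -0.09, -2.003, 0.12 and -0.60 in dKO females (-4.58 ± 0.58, adjusted p = 3.98e-05, 0.0106). Mup3, not called in wild type, read 8.69, 9.08, 8.85 and 8.81 in dKO males, against 4.76, 3.42, 6.06 and 4.93 in dKO females (4.06 ± 0.48, adjusted p = 2.10e-05, 0.00932).

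Other genes gave a different picture in dKO with all arrays. Moxd1 and Krt4 were not above background on any treated dKO array. Sult2a4 read 2.99, 2.09, 3.31 and 2.69 in dKO males, against 3.63, 0.64, 5.34 and 4.19 in dKO females (-0.68 ± 0.88, adjusted p = 0.618). Its wild-type minus dKO difference was -5.05 ± 1.24 (adjusted p = 0.0135, 0.156 without replicate 4). Zap70 read -1.72, -1.42, -0.99 and -1.28 in dKO males, against -1.39, -2.13, -1.16 and -1.69 in dKO females, with a wild-type minus dKO difference of -2.15 ± 0.33 (adjusted p = 0.000938, 0.0904).

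The cell cycle list had the reverse direction in dKO. Of its 44 members 35 were lower and 1 was higher in dKO males, and the wild-type minus dKO difference was called for 35 members with all arrays and for 0 without replicate 4. Its mean level was -2.25, -2.44, -1.59 and -1.94 on dKO male arrays, against -1.13, 0.32, -1.91 and -0.41 on dKO female arrays. Female replicates 2 and 4 were the highest of that group and female replicate 3 lay among the males. Afp followed, with -1.94, -1.95, -1.86 and -1.85 in dKO males, against -1.11, 2.21, -1.0 and 1.14 in dKO females (-2.21 ± 0.52, adjusted p = 0.00630, 0.144 without replicate 4).

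**Figure D4:**
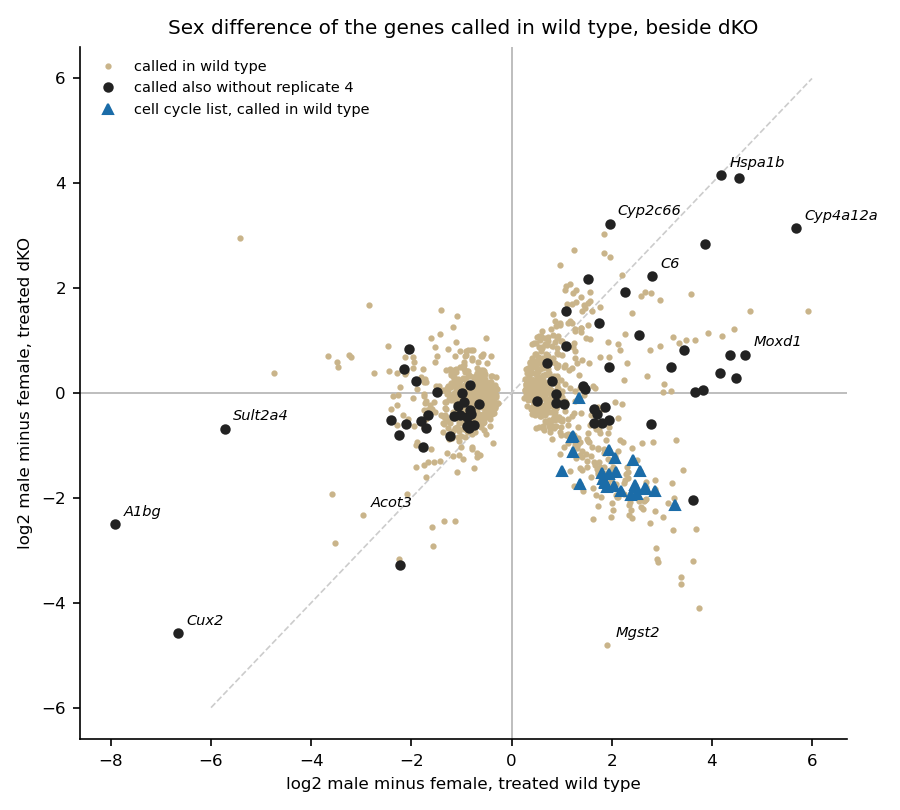
Log2 male minus female difference of the 1121 autosomal genes called in treated wild type (horizontal axis) beside the same difference in treated dKO (vertical axis). Black points were called also without replicate 4, triangles are called cell cycle genes, and the dashed line marks equal differences. Cell cycle genes lie right of 0 in wild type and below 0 in dKO, while Cyp4a12a, C6 and Cux2 have the same sign in both.

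The authors' deposited table gives a signed fold change for this comparison, as female over male. It had the same direction for all 1121 genes called here (100%), and of 1592 autosomal genes with a false discovery rate under 5% in the authors' deposited table, 901 were called here. That table describes the same groups of the same series, so the shared direction is no independent evidence. Among the genes called here its largest false discovery rate was 20.75%.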

How the data were processed

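Total RNA was amplified with WT-Ovation Pico, labelled with Cy3 and hybridised to single-colour Agilent arrays, per the labels' protocols, which mention liver and also sorted cells as its origin. Feature Extraction 10.5.1.1 read the scans per the file headers, and 9.53 per the submitters' processing notes. Its processed, mean and local background signals are intensity values, per the file headers. A series-wide table deposited by the authors gives a signed fold change and a false discovery rate in percent for each contrast, both taken here as the authors' scores. The sources used here do not give the test behind them.

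Of 43379 spots on an array, 72 to 127 carried an outlier mark and were dropped. Copies of a probe were averaged to 41174 probes, and the log2 signal was set relative to the 75th percentile of its array. A probe entered the fit if at least 4 of the 24 arrays had it well above background (28051 probes), and a gene was represented by its brightest probe. Names came from RefSeq accessions, symbols or, failing these, the files. No spot was saturated. The model, in limma 3.58.1 under R 4.3.3 (tables read with data.table, version 1.17.8), had 6 group means over 24 arrays, with p adjusted over 19037 genes by Benjamini-Hochberg. It was also run on simulated arrays whose gene means and spreads were taken from these arrays. Plots used Python 3.11.15 with matplotlib 3.10.9 and pandas 2.3.3.

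The text names the 15 largest and 15 smallest differences among called genes whose groups did not overlap, provided the higher group was above background throughout. It also names up to 6 called and 2 uncalled members of each list described, the 8 largest and 8 smallest wild-type minus dKO differences, set regulators, runs of 3 or more neighbours, and 9 genes chosen after their values were seen. A few genes within these rules are not reported here. The members and lists were chosen with earlier results of these data known. Same-numbered replicates did not pair, since their deviations correlated at 0.08, -0.13, -0.34 and 0.18. Alternatives were other probe summaries, filters, background correction, centring and normalization, slide, position and replicate as terms, and arrays left out.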

Additional observations from a re-analysis of the deposited data

Results flagged for a closer look

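In 12 of 242 tests of 4 arrays, 1 array stood outside the other 3 by Dixon's criterion, where chance alone gives about 5%. Treated female replicate 3 was that array for 7 genes, each time on the side of the males. It was the highest female for Kcnk1 (-3.99), Scara5 (-4.39) and Mirg (-2.93), and the lowest for Sult2a4 (2.17), Sult2a2 (6.15), Cyp2c38 (-2.10) and Dct (1.58). The others were male replicate 1 for Cyp17a1 (-0.82, lowest), male replicate 2 for Themis (-2.83, lowest), female replicate 1 for Bub1b (-4.88, lowest), female replicate 4 for Serpina5 (-6.45, highest) and female replicate 2 for Cyp7b1 (4.50, highest). All female values of Serpina5 were as low as Cux2 on male arrays, where Cux2 was not above background. So were the other female values of Scara5 (-6.70 or lower), Kcnk1 (-5.42 or lower) and Mirg (-5.27 or lower). These 4 outliers therefore rest on signal near background. Without female replicate 3 alone, 582 genes were higher and 487 lower in males, so the counts did not rest on it.

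The sex difference itself differed between wild type and dKO for 2296 autosomal genes with all arrays and for none by limma's adjusted test without replicate 4 (2735 at an unadjusted p under 0.05). Among genes called in both tests, the largest positive wild-type minus dKO differences were those of Rbp7 (7.85), Ly6d (7.04), Fam83a (6.88), Sdcbp2 (6.83), Mgst2 (6.72), Ckap2 (6.27), Cbr3 (6.16) and Npc1l1 (6.07). Among the most negative were those of A1bg (-5.41), Sult2a2 (-5.13), Sult2a4 (-5.05), 1810046K07Rik (-4.53), Hamp2 (-4.38), Slc22a26 (-3.96) and Rdh16f2 (-3.96). Treated dKO female replicate 2 was the highest of its group for all 8 genes of the first set. Rbp7 read -4.82, -6.42, -4.80 and -4.48 on dKO male arrays, against -2.41, 1.57, -3.63 and 0.31 on dKO female arrays. In the second set it was the lowest of its group for all 7 genes, as for Sult2a4 (0.64, against 3.63, 5.34 and 4.19). The part of that array and of replicate 4 in these values was not tested beyond the counts without them.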

How the results depend on the processing

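No named gene that was called changed direction under any setting. Where arrays were left out, this follows for all but 4 of these genes from groups that do not overlap. Among uncalled named genes Ghr was 0.01 without replicate 2 of every group, and within slide 1 the single pair of arrays gave -1.71 for Bcl6, -0.29 for Foxa3, 0.41 for Ghr and 1.24 for Socs2. Of the named genes called with all arrays, 28 passed without replicate 4 of every group and 72 with normexp background. Prox1 lost its call under 15 settings, Mgst2 under 14, and Cyp2c38, Trim24 and 1810046K07Rik under 13 each. Fmo5 lost it under 12, and C8a and Gstm2 under 11 each. The normexp background gave 305 genes higher and 189 lower in males, 2079 called in dKO and 1199 with a wild-type minus dKO difference, which was 1504 without the filter on dim probes. Leaving out replicate 1, 2, 3 or 4 of every group gave 235, 602, 670 and 37 genes higher, 240, 588, 598 and 31 lower, 2427, 1455, 5547 and 433 called in dKO, and 1325, 676, 4589 and 0 with a wild-type minus dKO difference. Leaving out 1 array at a time gave 353 to 582 genes higher and 307 to 523 lower. The lowest counts came without male replicate 4 (361 and 307), female replicate 1 (353 and 344) or female replicate 4 (367 and 315). In dKO the range was 2194 to 5754 (female replicate 4 and female replicate 3 left out), with 1422 to 4244 wild-type minus dKO differences for the same arrays. With the replicate block 531 were higher and 456 lower, which is not a paired test here because the numbers do not pair. Slide as a fixed block gave 589 and 542, and as a random block 676 and 644. Fitting the 8 compared arrays alone gave 931 calls, of which 655 were among the 1121 reported, and 17 of 104 named calls were lost. All other settings stayed within 1.5 times the counts reported, which does not say that the genes were shared. The cause of these shifts was not tested. The number of arrays and signal near background limit small differences.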
